A study of Homo sapiens with 6 samples.

Results

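The genes followed here build the intermediate filament cytoskeleton, and they were measured in collagen cultures of HCA-7, an established human colorectal cancer cell line. They were the keratin genes KRT8, KRT18, KRT19, KRT20, KRT23 and KRT80, and the vimentin gene VIM. They were taken as every probe set that the array platform's gene table assigns to these symbols, which gave 9 probe sets for the 7 genes, out of 54675 probe sets and 19775 named genes. No probe set named one of them together with another gene. In type 1 collagen HCA-7 forms cystic and spiky colonies, and clone cc3 (cystic) and clone sc1 (spiky) were grown in the gel for 5, 10 or 15 days. Total RNA of the gel layer that held the cells was hybridised to Affymetrix U133 Plus 2.0 arrays, 1 for each clone at each time and 6 in all. The labels name no treatment, and every sample is HCA-7. Each colony shape is represented by 1 clone, so shape and clone cannot be told apart, and nothing in the labels says that the days were separate cultures. P-values therefore reflect the scatter among these 6 arrays alone, and that scatter may be technical.

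Keratins build the intermediate filaments of epithelial cells. A filament is an obligate copolymer of a type I and a type II keratin, and the partners need each other: unpaired keratin protein is degraded. Simple, single-layered epithelia such as the lining of the colon make the type II keratin KRT8 and the type I keratins KRT18 and KRT19, and mature colon cells add KRT20. Vimentin builds the filaments of mesenchymal cells and is a common marker of carcinoma cells that take on mesenchymal traits. Pathologists use the pair KRT7 and KRT20, with the homeodomain factor CDX2, to trace a carcinoma to the colon.

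Expression is given as deposited log2 values. They ran from 1.72 to 15.07, and the array medians lay between 5.18 and 5.34. Genes with a mean of at least log2 5 over the 6 arrays were tested. KRT8, KRT18, KRT19 and KRT80 reached that level and KRT20, KRT23 and VIM did not, so 4 of the 7 genes were among the 12317 tested. Of 9 colorectal epithelium markers EPCAM, CDH1 and VIL1 were tested, with EPCAM, the epithelial adhesion molecule, at 11.63 to 11.86. CDX1, LGALS4, CEACAM5, GPA33 and CDH17 lay under log2 5 on all arrays, and CDX2 ran from 4.47 to 5.14. Summed over the 9 markers the level was 12.28 to 12.42 in cystic and 12.19 to 12.27 in spiky colonies (log2). General epithelial transcripts were thus bright, while most of those specific to the intestine, villin apart, were near or under the level required for testing.

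RefSeq promoter entries (GRCh38.p14) were matched for KRT20, VIM and KRT8, and not for KRT18, KRT19, KRT23 and KRT80. The promoters of these 3 of the 7 genes are shown for that reason. KRT20 and VIM stayed dim and KRT8 was bright, but the 3 were not chosen for this contrast. Each run holds the 250 bases before the listed start, 5′ to 3′. Capitals mark TTTAT, a core bound by CDX homeodomain factors, and GGGCGG, the GC box bound by SP1, searched on both strands, so that their reverse complements are in capitals too. Read from the other strand TTTAT also forms part of a TATA box.
KRT20, chr17:40885243-40885492, minus strand: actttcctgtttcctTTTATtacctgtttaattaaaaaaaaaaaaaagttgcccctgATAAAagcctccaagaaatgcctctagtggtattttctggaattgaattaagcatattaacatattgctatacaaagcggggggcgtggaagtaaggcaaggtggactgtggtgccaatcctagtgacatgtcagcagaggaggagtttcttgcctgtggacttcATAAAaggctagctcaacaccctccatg
VIM, chr10:17227991-17228240, plus strand: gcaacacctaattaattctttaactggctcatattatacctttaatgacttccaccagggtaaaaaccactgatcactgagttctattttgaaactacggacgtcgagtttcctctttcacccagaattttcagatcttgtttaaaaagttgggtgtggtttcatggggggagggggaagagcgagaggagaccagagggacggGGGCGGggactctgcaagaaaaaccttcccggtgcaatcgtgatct
KRT8, chr12:52926470-52926719, minus strand: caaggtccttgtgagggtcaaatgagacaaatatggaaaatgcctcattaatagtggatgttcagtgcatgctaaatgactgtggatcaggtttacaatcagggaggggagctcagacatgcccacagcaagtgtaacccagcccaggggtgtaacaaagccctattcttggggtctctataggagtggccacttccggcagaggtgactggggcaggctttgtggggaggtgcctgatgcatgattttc
KRT20 held TTTAT at 3 positions, VIM held GGGCGG at 1, and the KRT8 stretch held neither. Over 35116 promoters of the same length 32.7% held TTTAT and 42.6% held GGGCGG, so both motifs are common. A match is a description of the letters and not a measured binding site. Whether the listed starts are the ones in use in these cells was not tested, so the KRT8 stretch need not be its active promoter.

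KRT18 and KRT8, the partners of the basic simple-epithelium filament, were lower at day 15 than at day 5, in both clones. KRT18 stood at 12.79, 12.09 and 12.00 in the cystic clone and at 12.72, 12.33 and 12.20 in the spiky clone at day 5, 10 and 15 (log2). Both day 5 arrays lay above all later arrays, and within each clone the order was day 5, day 10, day 15. The fitted difference between day 15 and day 5 was -0.66 (SE 0.08, 95% interval -0.84 to -0.47), a level 1.58-fold lower, with limma adjusted p = 0.00106.

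KRT8 stood at 10.23, 9.52 and 9.43 in the cystic clone and at 10.01, 9.56 and 9.85 in the spiky clone at day 5, 10 and 15. The day 5 arrays were again the highest, but the spiky day 15 array came back to within 0.16 of its day 5 value. Between day 15 and day 5 KRT8 differed by -0.48 (SE 0.15, 1.39-fold lower), with limma adjusted p = 0.0412. This call was lost without the cystic day 5 array (-0.26, adjusted p = 0.404), without the cystic day 15 array (-0.22, adjusted p = 0.220) or without the spiky day 5 array (-0.70, adjusted p = 0.0716), with cyclic loess between arrays (-0.33, adjusted p = 0.133), with 1 variance prior for all genes (adjusted p = 0.118), without colony shape (adjusted p = 0.130) and with no filter (adjusted p = 0.0747). The KRT18 call held without each of the 6 arrays in turn, at -0.80 to -0.51.

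The probe sets of KRT8 and KRT18 end in _x_at, the suffix Affymetrix gives to probe sets that may cross-hybridise. The RefSeq table lists 52 symbols of KRT8 pseudogenes and 68 of KRT18 pseudogenes, and these genes had no other probe set, so signal from near-identical copies cannot be told apart from that of the parent genes. In bulk RNA, fewer cells of a type and less RNA per cell cannot be told apart either.

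**Figure D1:**
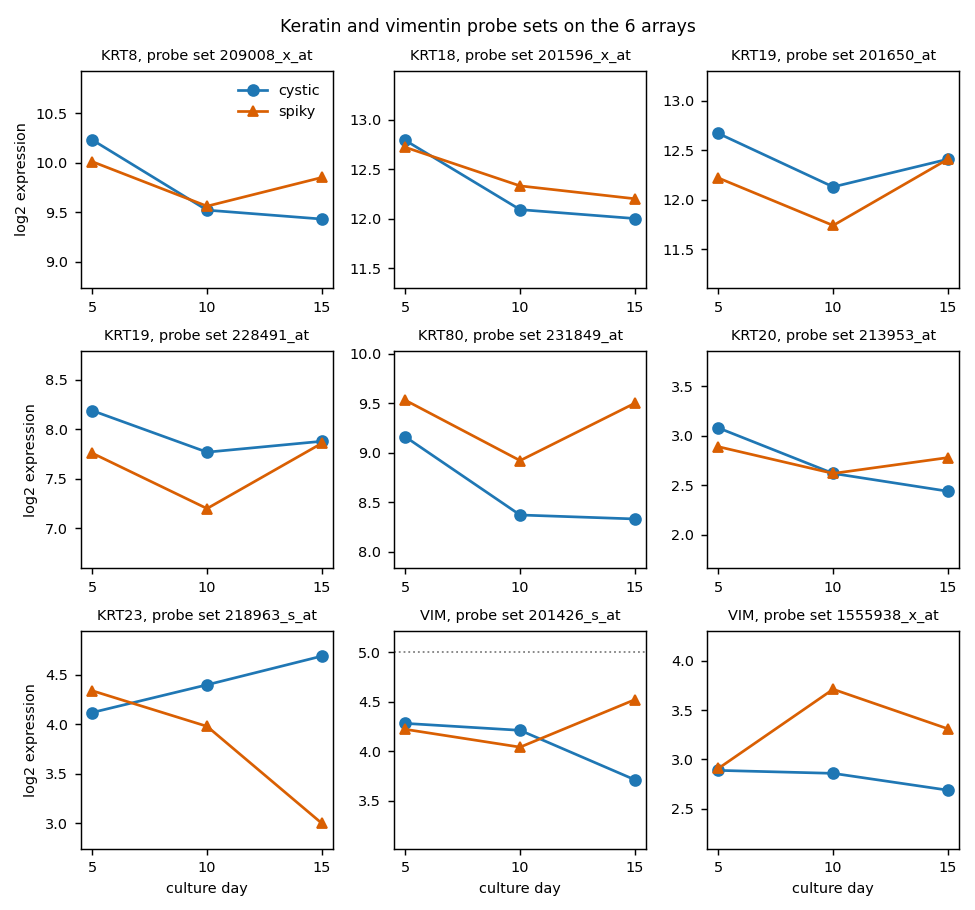
Log2 expression (y axis) of the 9 probe sets by culture day (x axis), with blue circles for the cystic and orange triangles for the spiky clone, 1 array per point and the same height of y axis in each panel; the dotted line marks log2 5 where it falls inside a panel. KRT18 declines in both clones, both KRT19 probe sets dip at day 10, and KRT23 and VIM stay under log2 5 on all arrays.

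KRT19, a type I keratin of simple epithelia that lacks the usual tail domain, was lowest at day 10 in both clones and rose from there to day 15. Its brighter probe set read 12.67, 12.13 and 12.41 in the cystic clone and 12.22, 11.74 and 12.41 in the spiky clone at day 5, 10 and 15. The clones were level at day 15, and over all days mixed the groups overlap. From day 10 to day 15 the fitted difference was 0.47 (SE 0.10, 1.39-fold higher), with limma adjusted p = 0.0118. The call was lost without the spiky day 10 array, at 0.39 with adjusted p = 0.0799, with 1 variance prior (adjusted p = 0.113) and without colony shape (adjusted p = 0.186). Without the spiky day 15 array the difference was 0.27 and passed (adjusted p = 0.0193).

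The other KRT19 probe set read 8.19, 7.77 and 7.88 in the cystic clone and 7.76, 7.20 and 7.86 in the spiky clone. It had the same low point and the same meeting of the clones at day 15. Its difference from day 10 to day 15 was 0.39 (SE 0.19) and did not pass (limma adjusted p = 0.263 with every probe set tested). Between day 15 and day 5 KRT19 differed by -0.04 (95% interval -0.27 to 0.19), a value whose sign turned with cyclic loess (0.12).

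KRT80, a type II keratin of epithelia linked to desmosomes, was the one tested gene of the set called between the clones, and it was higher in the spiky one. Its values were 9.16, 8.37 and 8.33 in the cystic clone and 9.53, 8.92 and 9.50 in the spiky clone at day 5, 10 and 15. At each day the spiky array was the higher, although the groups overlap when days are mixed, since cystic day 5 lies above spiky day 10. The fitted difference was 0.70 (SE 0.16, 95% interval 0.34 to 1.05), or 1.62-fold, with limma adjusted p = 0.0213. Without the cystic or the spiky day 5 array the difference was 0.86, with adjusted p = 0.0493 (passed) and 0.0522 (call lost). These fits are the same check, since either removes day 5 from the clone comparison, and they lie at the edge of the threshold. The call was also lost with 1 variance prior (adjusted p = 0.0901) and with culture day as a block left out (adjusted p = 0.427). Without the cystic or the spiky day 15 array the difference was 0.46 and passed, with adjusted p = 0.0129 and 0.0180. Both fits are the same check, since either removes day 15 from the clone comparison.

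Within the cystic clone KRT80 differed by -0.80 from day 5 to day 10 and by -0.03 from there to day 15. Within the spiky clone the same steps were -0.61 and 0.58, so that day 15 lay beside day 5 (-0.04). The gap between the clones was 0.37 at day 5, 0.56 at day 10 and 1.16 at day 15. The slope difference, 0.79 per 10 days (SE 0.54, 95% interval -0.47 to 2.05), did not pass (limma adjusted p = 0.999), and without the spiky day 15 array it was -0.39.

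The other tested genes of the set had smaller fitted differences between the clones, although at day 5 the gap of KRT19 was wider than that of KRT80. KRT19 was lower in spiky colonies by 0.45 at day 5 and 0.40 at day 10 but level at day 15 (-0.01), with a fitted difference of -0.29 (SE 0.08) that missed the threshold (limma adjusted p = 0.0605). Without the cystic or the spiky day 15 array it was -0.42 and passed, with adjusted p = 0.000105 for either. Leaving out either array of a day removes that day from the clone comparison, so both fits are the same check. It rests on day 5 and day 10, whose gaps were close. Without a day 5 array it was -0.20 (adjusted p = 0.383 and 0.382) and without a day 10 array -0.23 (adjusted p = 0.232 and 0.231). KRT18 differed by 0.12 (95% interval -0.03 to 0.28) and KRT8 by 0.08 (95% interval -0.20 to 0.37), with limma adjusted p = 0.318 and 0.755. KRT8 lay 0.22 lower in the spiky clone at day 5, level at day 10 (0.04) and 0.42 higher at day 15. In all, 1 of 4 tested genes was called between the clones, against 11.4% of all tested genes (3.65% higher and 7.74% lower), and a count of 1 shows nothing particular to the set.

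**Figure D2:**
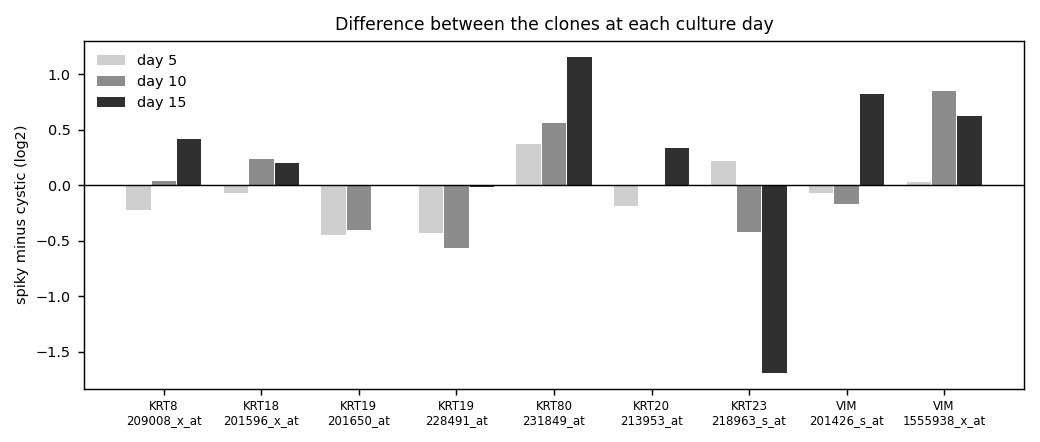
Spiky minus cystic difference in log2 expression (y axis) for each of the 9 probe sets (x axis) at day 5, 10 and 15 (light to dark bars), 1 array per clone and day, without error bars because no day was replicated within a clone. KRT80 is higher in the spiky clone at each day, at 0.37, 0.56 and 1.16, and the KRT19 gap closes at day 15.

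Across the days the tested genes of the set had their largest negative steps first. From day 5 to day 10 all 4 had negative differences, -0.55 for KRT18, -0.51 for KRT19, -0.58 for KRT8 and -0.70 for KRT80, and each was negative in both clones. Limma called 0 of them after adjustment, and 4 of 4 had an unadjusted p under 0.05. The same step called 2 of 12317 genes, 0.0162% (0.00812% in each direction), while 1658 had an unadjusted p under 0.05. Without the cystic or without the spiky day 15 array all 4 passed, with adjusted p from 0.000314 for KRT19 to 0.00946 for KRT8, while the calls over all 12317 genes went to 465 and 469. Without the cystic day 5 array none of the 4 passed, with KRT8 at -0.35 and KRT80 at -0.46 (adjusted p = 0.642 for both) and KRT18 and KRT19 at -0.40 and -0.39 (adjusted p = 0.624 for both), and 0 genes were called in all.

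From day 10 to day 15, 1 of 4 was called, KRT19, against 22.6% of all tested genes (8.66% higher and 14.0% lower). KRT8 (0.10, SE 0.15), KRT80 (0.27, SE 0.19) and KRT18 (-0.11, SE 0.08) did not pass. Between day 15 and day 5, 2 of 4 were called and both were lower, against 32.3% of tested genes called, 21.9% lower and 10.4% higher. The median difference of the 4 was -0.46, beside -0.11 over all tested genes. With cyclic loess 55.1% of the calls at day 15 were lower and with arrays centred on their medians 76.4%, against 67.7% as deposited. KRT80 differed by -0.43 (SE 0.19, limma adjusted p = 0.114) between these days. Leaving out 1 array took it from -0.08 (adjusted p = 0.734, without cystic day 15) and -0.19 (adjusted p = 0.648, without cystic day 5) to -0.68 (adjusted p = 0.134, without spiky day 5) and -0.78 (adjusted p = 0.00309, without spiky day 15). For the slope difference limma called 0 of 4 and 0.0% of all genes; 0 of 4 and 309 of all 12317 had an unadjusted p under 0.05.

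**Figure D3:**
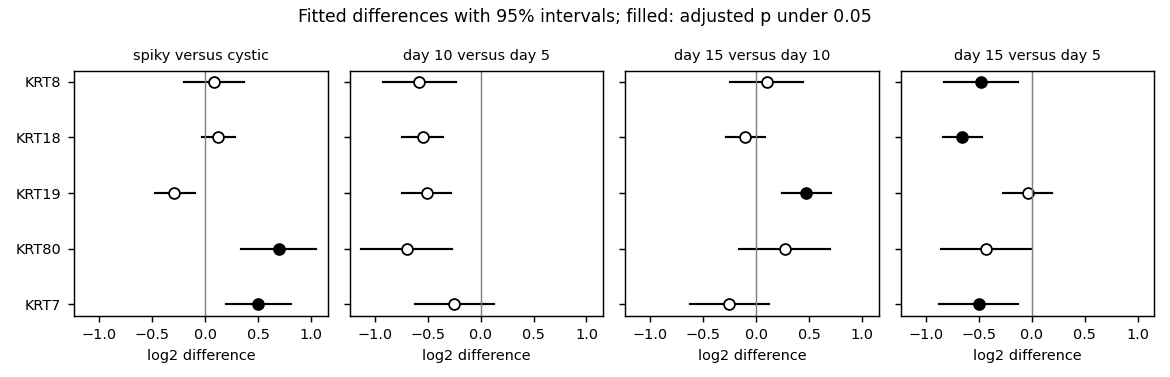
Fitted log2 differences (x axis) of the 4 tested keratins of the set and of KRT7 (y axis) in 4 comparisons, with lines for the 95% intervals of the limma fit to 6 arrays and filled points for adjusted p under 0.05. KRT18 and KRT8 are filled for day 15 against day 5, KRT19 for day 15 against day 10, and KRT80 for spiky against cystic; KRT7 is filled for spiky against cystic and for day 15 against day 5.

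The 3' over 5' difference of the ACTB control probe sets, a sign of RNA integrity, moved with culture day. It was 2.83, 3.18 and 3.28 in the cystic clone and 2.73, 2.74 and 3.10 in the spiky clone at day 5, 10 and 15 (log2), while that of GAPDH was 0.49 to 0.79. Its part in the day differences was not tested.

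KRT20, the type I keratin of differentiated colon cells, gave 3.08, 2.62 and 2.44 in the cystic clone and 2.89, 2.62 and 2.78 in the spiky clone. All 6 values lie far under log2 5. With no filter on dim genes it differed by 0.05 between the clones (95% interval -0.31 to 0.41) and by -0.38 between day 15 and day 5 (95% interval -0.81 to 0.06), with limma adjusted p = 0.917 and 0.234. Of 27 genes of colonocyte differentiation, fixed as a list, 21 were likewise under the level required for testing, among them SLC26A3, the chloride-bicarbonate exchanger of the colon surface, at 2.52 to 2.88, and FABP1, a fatty acid binding protein, at 3.09 to 4.02.

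Among the 6 colonocyte genes tested, VIL1 was lower in spiky colonies and KLF4 fell over culture. VIL1, the microvillus actin bundler, differed by -0.68 (limma adjusted p = 0.0411) between the clones, a call lost without the day 5 or day 10 array of either clone (-0.66 to -0.50, adjusted p = 0.127 to 0.290), and with no filter, the median over probe sets, arrays centred on their medians, 1 variance prior or culture day left out. KLF4, a transcription factor of differentiating colon epithelium, fell by 1.02 from day 5 to day 15 (adjusted p = 0.0192), and the call was lost without cystic day 5 (adjusted p = 0.174), cystic day 15 (-0.50, adjusted p = 0.107) or spiky day 5 (adjusted p = 0.0921), with 1 variance prior and without colony shape. The median differences of the 6 were -0.16 and -0.03, beside -0.03 and -0.11 over all tested genes.

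KRT7, the type II keratin of ductal epithelia, was bright and is given as the counterpart of KRT20. Its brightest probe set read 10.62, 10.24 and 9.72 in the cystic clone and 10.77, 10.66 and 10.66 in the spiky clone at day 5, 10 and 15. On this probe set the spiky arrays lay within 0.11 of each other and the cystic arrays went down by 0.90 from day 5 to day 15. The slope difference of 0.79 per 10 days (SE 0.27) did not pass (limma adjusted p = 0.999). KRT7 was 0.50 higher in spiky colonies (SE 0.13, limma adjusted p = 0.0437) and 0.50 lower at day 15 than at day 5 (SE 0.16, adjusted p = 0.0443). The clone call was lost without the day 5 or day 10 array of either clone (0.55 to 0.68, adjusted p = 0.0502 to 0.0642). The day call was lost without cystic day 5 (-0.24, adjusted p = 0.439), cystic day 15 (-0.17, adjusted p = 0.273) or spiky day 5 (-0.77, adjusted p = 0.0614), with cyclic loess (-0.35, adjusted p = 0.136), with no filter (adjusted p = 0.0839), with 1 variance prior (adjusted p = 0.140) and without colony shape (adjusted p = 0.334). The clone call was also lost with no filter (adjusted p = 0.0857), with 1 variance prior (adjusted p = 0.170) and with culture day left out (adjusted p = 0.483).

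The 2 other KRT7 probe sets with bright values gave smaller clone differences, 0.24 and 0.17, and larger day differences, -0.79 and -0.79. They were lower at day 15 than at day 5 in the spiky clone too, at 10.56, 10.11 and 10.11 and at 9.77, 9.49 and 9.28 on day 5, 10 and 15. The dimmest, at 4.65 to 5.86, pointed the other way over culture (0.51, SE 0.33). The median over the probe sets of KRT7 put the clone difference at 0.22, with adjusted p = 0.325.

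KRT23, a type I keratin, showed the widest span of the dim genes of the set. It read 4.12, 4.40 and 4.69 in the cystic clone and 4.34, 3.98 and 3.00 in the spiky clone. The cystic arrays went up by 0.57 from day 5 to day 15 and the spiky arrays went down by 1.33, all under log2 5. With no filter the slope difference was -1.91 per 10 days (SE 0.46), with an unadjusted p of 0.00368 and limma adjusted p = 1.0.

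Vimentin was dim in both clones, the spiky one included. Its main probe set read 4.28, 4.21 and 3.71 in the cystic clone and 4.22, 4.04 and 4.52 in the spiky clone, and the other one 2.89, 2.86 and 2.69 against 2.91, 3.71 and 3.31. The clones overlap on the main probe set. On the other one each spiky array was the higher, by 0.03, 0.85 and 0.62. With no filter VIM differed by 0.19 between the clones (95% interval -0.33 to 0.72, limma adjusted p = 0.742), and the other probe set, tested with all probe sets, by 0.50 (SE 0.19, adjusted p = 0.204).

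Of 17 mesenchymal genes 11 were under the level required for testing. Of the 6 tested 1 was higher in spiky colonies, VCAN, which encodes the matrix proteoglycan versican (at least 18.3-fold higher). S100A4, a calcium-binding protein of motile cells, was lower by a difference of -1.78 (SE 0.17, limma adjusted p = 0.000463) and CTHRC1, a secreted matrix protein, by -1.51. The S100A4 gap was -2.14, -2.08 and -1.12 at day 5, 10 and 15, and its clone call ended with culture day left out. Between day 15 and day 5 S100A4 rose by 0.89 (SE 0.20, limma adjusted p = 0.0103), by 0.38 in the cystic and 1.40 in the spiky clone. This day call was lost without the spiky day 5 array (0.62), with 1 variance prior and without colony shape. Over all tested genes 3.65% were called higher and 7.74% lower in spiky colonies. The median of the 6 tested mesenchymal genes was -0.27 between the clones, beside -0.03 over all tested genes. Between day 15 and day 5 it was 0.47, beside -0.11. Of the 6, 1 was called higher at day 15, S100A4, against 10.4% of all tested genes. Of the markers of cells that normally carry vimentin, 7 of 9 fibroblast, 4 of 9 leukocyte and 3 of 6 endothelial ones lay under log2 5 on all arrays, COL3A1, PTPRC and CDH5 among them. Others were brighter, among them FBLN1 at 5.96 to 6.29, CSF1R at 4.82 to 6.67, CORO1A at 4.52 to 6.04, ITGB2 at 5.31 to 5.85 and CLDN5 at 6.15 to 6.42. Summed over each list, fibroblast markers lay at 7.99 to 8.84 in cystic and 7.91 to 8.49 in spiky colonies, leukocyte markers at 7.98 to 8.31 and 7.64 to 7.97, and endothelial markers at 7.15 to 7.51 and 7.35 to 7.63 (log2 of the summed levels). A sum over 6 or 9 genes lies above log2 5 even where each gene is near that level. These sums therefore do not show by themselves that the markers were expressed, and they cannot be set beside values of single genes. The fibroblast collagen gene COL1A1 rose by 1.38 from day 5 to day 15 (SE 0.21, adjusted p = 0.00203), a call that ended with the median over the probe sets of the gene; COL1A2 and COL3A1 were under log2 5 throughout. Its part in the vimentin values was not tested.

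The other keratins were mostly dim. Of 49 further keratin genes of both types 38 had a probe set of their own and 8 reached the level required for testing. KRT13, a type I keratin of stratified mucosa, showed the largest clone difference among those 8. It read 7.70, 5.92 and 6.13 in the cystic clone and 5.36, 4.65 and 5.28 in the spiky clone, with no overlap. It was at least 2.59-fold lower in spiky colonies (fitted log2 difference -1.49, SE 0.27, limma adjusted p = 0.00859), counting the array under log2 5 at 5. The call was lost without the cystic day 5 array (-1.06, adjusted p = 0.0571) or the spiky day 5 array (-1.06, adjusted p = 0.0524) and with culture day left out. KRT10, a type I keratin of suprabasal skin that is also made elsewhere, fell by 0.52 from day 5 to day 15 (adjusted p = 0.0259), a call lost without cystic day 5 (adjusted p = 0.0759) or spiky day 5 (adjusted p = 0.262), with cyclic loess, with 1 variance prior and without colony shape. Of the 4 tested type II genes 1 was higher in spiky colonies and 1 lower at day 15, KRT7 in both cases, with medians of -0.04 and -0.07. Of the 4 tested type I genes 1 was lower in spiky colonies and 1 at day 15, with medians of 0.12 and -0.26, beside -0.03 and -0.11 over all tested genes. The shares of all tested genes called were 3.65% higher and 7.74% lower in spiky colonies, and 21.9% lower at day 15. Counts of 1 show nothing particular to these keratins. The basal keratins KRT5 and KRT14 lay at 4.30 to 4.54 and 3.61 to 4.03.

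Type II keratin genes lie together on chromosome 12, with KRT18 at the end of the row, and most type I genes on chromosome 17. From KRT80 to KRT18 the RefSeq table has 27 keratin genes, of which 21 had a probe set and 7 were tested: KRT80, KRT7, KRT83, KRT72, KRT3, KRT8 and KRT18. Of these, 2 were higher in spiky colonies, KRT80 and KRT7, and 3 were lower at day 15, KRT7, KRT8 and KRT18. The shares over all tested genes were 3.65% and 21.9%. Apart from KRT7 these are the calls of the set given above, and the KRT7 clone call ended with the median over its probe sets. Counts this small show nothing particular to the row. From KRT20 to KRT19 on chromosome 17 there were 16, of which 4 were tested. Of these 1, KRT13, was lower in spiky colonies, against 7.74% of all tested genes. The median clone difference was -0.02 over 667 tested genes of chromosome 12, -0.04 over 764 of chromosome 17 and 0.03 over 480 of chromosome 10, which carries VIM.

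**Figure D4:**
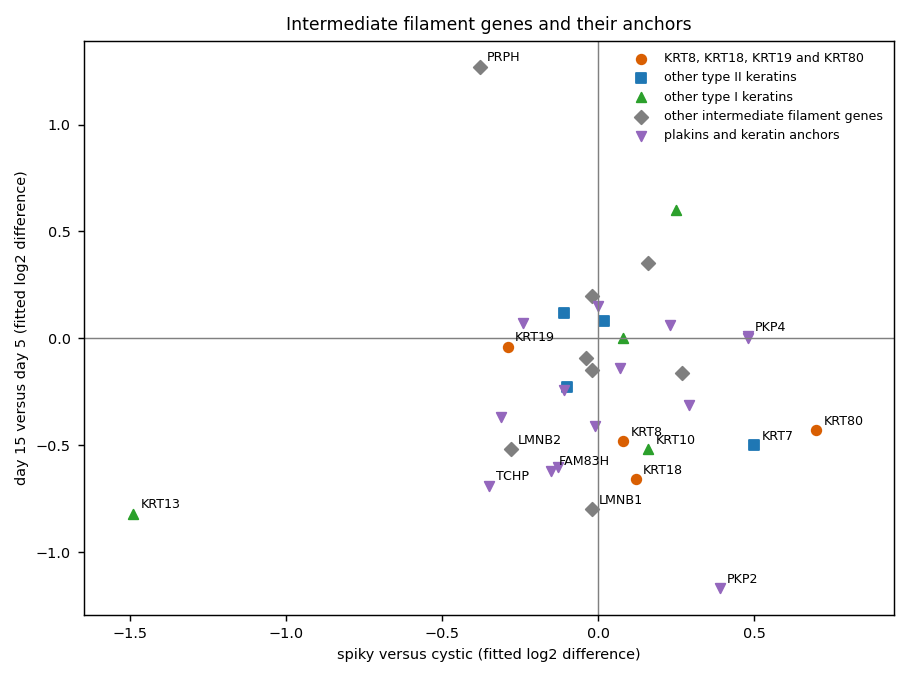
Fitted log2 differences of the tested intermediate filament genes and keratin anchors, spiky against cystic on the x axis and day 15 against day 5 on the y axis, 1 point per gene, with names for the 4 tested keratins of the set and for genes with adjusted p under 0.05 in either comparison. KRT80 and KRT7 lie to the right, KRT13 far to the left, and KRT18, KRT8, LMNB1 and PKP2 below zero.

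Among the other intermediate filament genes limma called 0 of 8 tested between the clones, against 11.4% of all tested genes. Of the 8, 1 had an unadjusted p under 0.05, and the median was -0.02 beside -0.03 over all tested genes. The largest difference was that of PRPH, the neuronal filament protein peripherin (-0.38, adjusted p = 0.294). Between day 15 and day 5, PRPH rose by 1.27 (at least 2.03-fold, adjusted p = 0.00558) and the nuclear lamin genes LMNB1 and LMNB2 fell by 0.80 and 0.52 (adjusted p = 0.00520 and 0.0171). The median over the 8 was -0.12, beside -0.11 for all tested genes, of which 10.4% were called higher and 21.9% lower. Without the spiky day 5 array none of these 3 passed (adjusted p = 0.0974, 0.0844 and 0.208), and LMNB2 was also lost without cystic day 5 (adjusted p = 0.0617) or spiky day 15 (adjusted p = 0.0507), with cyclic loess, with 1 variance prior and without colony shape.

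Several plakins and plakophilins tie keratin filaments to desmosomes, and a list of these families and other keratin anchors was examined. All 14 genes of this list were tested, and 1 was higher in spiky colonies, PKP4, at 10.37, 10.41 and 10.36 in the cystic clone and 10.95, 10.64 and 10.97 in the spiky clone at day 5, 10 and 15 (difference 0.48, SE 0.09, limma adjusted p = 0.0128). Its groups do not overlap, and the call was lost without the day 5 array of the cystic (0.43, adjusted p = 0.121) or of the spiky clone (0.43, adjusted p = 0.132). At day 15, 3 of 14 were lower than at day 5, the desmosomal plakophilin PKP2 (-1.17, adjusted p = 0.00503), FAM83H, which recruits casein kinase to keratins (-0.62, adjusted p = 0.00608), and TCHP, the keratin-binding protein trichoplein (-0.69, adjusted p = 0.0479). TCHP was lost without cystic day 5 (-0.94, adjusted p = 0.0660), spiky day 5 (-0.43, adjusted p = 0.403) or spiky day 15 (-0.40, adjusted p = 0.303). PKP2 and FAM83H were lost without the spiky day 5 array, with adjusted p = 0.0850 and 0.100. Over all tested genes 21.9% were called lower at day 15, so the count of 3 of 14 is near the background. Between the clones 3.65% were called higher in spiky colonies, and a count of 1 shows nothing particular to the list. The list had a median of -0.28, beside -0.11 for all tested genes. The PKP4 call also ended with the median over the probe sets of a gene, with 1 variance prior and with culture day left out, and the PKP2 call without colony shape. DSP, the desmoplakin that anchors keratins, and JUP, plakoglobin, differed by 0.29 and -0.31 between the clones and did not pass.

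KRT80 was the only gene of the set that was tested and spanned at least log2 1 over the 6 arrays. Among 3594 tested genes with as wide a span, the 3 whose values followed it most closely were CLU, which encodes the secreted chaperone clusterin (Pearson r = 0.98), the transcription factor gene KLF7 (r = 0.98) and NEDD9, a scaffold protein of focal adhesions (r = 0.974). CLU read 8.03, 7.08 and 7.06 in the cystic clone and 8.17, 7.56 and 8.05 in the spiky clone at day 5, 10 and 15. Like KRT80, these genes were lower at day 10 than at day 5 in both clones and came back at day 15 in the spiky clone, by 0.49, 0.82 and 0.37. Being picked for likeness to KRT80, they were bound to share most of its pattern. The 6 arrays share clones and days, so these values describe likeness of pattern and carry no test. Of the 3, NEDD9 passed between the clones (0.98, SE 0.15, limma adjusted p = 0.00433), and the call held without each of the 6 arrays in turn. CLU and KLF7 did not pass (adjusted p = 0.0937 and 0.106). NEDD9 was picked for following KRT80 on these same arrays, and KRT80 was itself called higher in the spiky clone. The NEDD9 call is therefore no separate result.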

How the data were processed

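The authors deposited 1 table of log2 expression values per probe set, and the submitters' processing notes name RMA, without a version. RMA corrects background and normalizes between arrays. Symbols came from the platform's annotation and were brought up to date through gene identifiers in RefSeq (GRCh38.p14). Of all probe sets 41097 had 1 symbol, 1801 several and 11777 none, and 41043 matched. Of the 9 probe sets here all had 1 symbol.

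The brightest probe set on average stood for a gene, and genes averaging at least 5 were tested. Limma 3.58.1 (R 4.3.3) was fitted to the 6 arrays with terms for day (3 levels) and for shape, with variances following the intensity trend, two-sided, Benjamini-Hochberg adjusted over all tested genes, threshold 0.05. Slope differences came from a model in which shape interacts with a linear term for time. Differences are spiky minus cystic or later minus earlier day. Folds written "at least" set values under 5 in the dimmer group to 5. The fit was tested on simulated data, where it found large changes but missed most of log2 0.5, and where the share of false calls between days lay above the threshold. For the slope difference it also missed most changes of log2 1 per 10 days and part of those of log2 2. A slope difference that did not pass therefore says little. The simulation changed 200 of 12317 genes, a smaller share than was called between the clones or between day 15 and day 5. Its rates of missed and false calls may therefore differ from those in these data. Arrays carry no read depth; their number limits the precision. Figures were drawn with matplotlib 3.10.9.

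Genes named were the members, KRT7, per list the 2 rising and 2 falling calls with the smallest p (else the largest difference), and the 3 genes most like each tested member that spans at least log2 1. DSP, JUP, TCHP, YWHAZ, KRT5, KRT14 and dim colonocyte and marker genes were named after their values were seen. The members and lists were chosen with earlier results of these data known. Alternatives covered the filter, the probe set, scaling, variance prior, model terms and each array left out. With 1 array of a day left out, the other array of that day no longer bears on the clone difference. Nor does it bear on a difference between the other days, so for these the fits without either array are the same check.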

Additional observations from a re-analysis of the deposited data

Results flagged for a closer look

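KRT23 and the dimmer VIM probe set moved in opposite directions in the clones at both later days. For KRT23 both later cystic arrays lay above day 5 and both later spiky arrays below it, and the change to day 15 in the spiky clone minus that in the cystic clone was -1.91. For the VIM probe set the cystic arrays lay below and the spiky arrays above day 5, with 0.59 for the same quantity. Both lie under log2 5 on all arrays and the differences were not tested among the genes that reached that level. With no filter KRT23 had limma adjusted p = 1.0.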

How the results depend on the processing

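Leaving out each array in turn gave 0 to 2 calls among the set for spiky against cystic, 1 to 4 for day 15 against day 5, 0 to 4 for day 10 against day 5 and 0 to 2 for day 15 against day 10. Spiky against cystic had 2 calls with a mean of at least 6, with every probe set tested and with cyclic loess (KRT19 and KRT80), and 0 with 1 variance prior and with culture day as a block left out of the model, where KRT80 had adjusted p = 0.427. Day 15 against day 5 had 1 call (KRT18) with no filter, with cyclic loess, with 1 variance prior, without colony shape and with every probe set of any level, the last chosen after seeing the data. Day 10 against day 5 had 1 call (KRT18) with a mean of at least 6, with the median over probe sets and with every probe set tested; day 15 against day 10 had 0 with 1 variance prior and without colony shape.

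Signs turned in values that had not passed with all arrays: with cyclic loess for KRT19 at day 15 against day 5 (0.12) and KRT18 at day 15 against day 10 (0.05). With 1 array left out, signs also turned for KRT8 between the clones (-0.09 to 0.23), KRT19 at day 15 against day 5 (-0.24 to 0.17), KRT7 at day 10 against day 5 (-0.51 to 0.02), KRT8 (-0.16 to 0.35), KRT80 (-0.08 to 0.62) and KRT7 (-0.59 to 0.07) at day 15 against day 10, and the slope differences of KRT8 (-0.10 to 1.38), KRT18 (-0.35 to 0.89), KRT19 (-0.71 to 1.60) and KRT80 (-0.39 to 1.98). Of 316 alternative values of the 4 tested genes 270 kept direction and side of the threshold, 14 lost a call, 19 gained one and 13 turned sign. Most of the 316 belong to values that had not passed in the main fit, so the share overstates how stable the calls were. All lost calls were those of KRT8, KRT80 and KRT19. The causes were not tested. Signal near background limits KRT20, KRT23 and VIM.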

Other observations

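Proteins that bind or modify keratins were examined as a further list. Of 13 genes 11 had a probe set and all 11 were tested. Limma called 0 between the clones, against 11.4% of all tested genes, and 1 had an unadjusted p under 0.05. The largest difference was that of the kinase gene PRKCE (0.45, adjusted p = 0.151). Between day 15 and day 5, 2 rose and 3 fell, counts near the 10.4% higher and 21.9% lower of all tested genes, with a median of -0.02 beside -0.11. DNAJB6, a chaperone that binds KRT18, fell by 1.45 (SE 0.16, limma adjusted p = 0.000725). Its values were 8.55, 8.38 and 7.20 in the cystic clone and 8.55, 8.22 and 6.99 in the spiky clone at day 5, 10 and 15, and the call held without each of the 6 arrays in turn. STUB1, a ubiquitin ligase that acts with chaperones, fell by 0.47, YWHAZ, the gene of a phosphoserine-binding adaptor protein, fell by 0.31 (adjusted p = 0.0251), and PNN, the desmosome-linked protein pinin, and OGT, which attaches sugar residues to keratins among many proteins, rose by 0.45 and 0.41. STUB1, PNN and OGT lost their calls without cystic day 5 (adjusted p = 0.0558, 0.0838 and 0.236), as did YWHAZ, which was also lost without cystic day 15 (-0.16, adjusted p = 0.107) or spiky day 5 (adjusted p = 0.159). STUB1 was lost also without spiky day 5 (adjusted p = 0.288) or spiky day 15 (adjusted p = 0.115), and with cyclic loess. PNN, OGT and STUB1 also lost their calls with 1 variance prior and without colony shape, and PNN with either other choice of probe set.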
